A study of Homo sapiens with 8 samples.

Results

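The miR-15 and miR-16 family is described here by 4 rows of a small RNA count table, chosen by name: the guide arms hsa-miR-15a-5p, hsa-miR-15b-5p and hsa-miR-16-5p and the passenger arm hsa-miR-16-2-3p. All 4 were found among 342 microRNA rows and 2962 small RNA features. The table comes from 8 libraries of HEK293 cells, a human embryonic kidney line, 4 collected after transfection with a scrambled control mimic and 4 after transfection with a mimic of the 3′ fragment (tDR) of tRNA-Asp-GTC. In both groups the mimic was given at 50 nM with Lipofectamine RNAiMax, so the controls also received a transfected RNA, and cells were collected after 48 h. Total RNA was extracted with TRIzol and sequenced as OTTR-seq libraries, whose adapters are added by a reverse transcriptase during copying rather than by ligation. Whether the replicates of a group were separate cultures is not stated in the labels; p-values therefore rest on the spread among these 8 libraries, and that spread may be technical.

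A microRNA is cut from a hairpin by Drosha and Dicer as a duplex of 2 arms. The arm kept by an Argonaute protein is the guide, and its seed, bases 2 to 8, pairs with target mRNAs and lowers their output. The other arm, the passenger, is mostly degraded. Guides of the miR-15/16 family are known to repress BCL2 and cyclin genes and to slow the G1 phase of the cell cycle, and the cluster on chromosome 13 is often deleted in chronic lymphocytic leukaemia. miR-16 is also abundant in red blood cells.

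The mature sequences show what the family shares, with the seed in capitals (RefSeq, GRCh38.p14).
hsa-miR-15b-5p: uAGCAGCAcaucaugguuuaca
hsa-miR-16-5p: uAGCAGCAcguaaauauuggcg
hsa-miR-15a-5p: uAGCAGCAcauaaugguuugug
hsa-miR-16-2-3p: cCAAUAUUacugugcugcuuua
The 3 guides carry the same seed, AGCAGCA, and the passenger arm has another, CAAUAUU. Counted from the 5′ end, hsa-miR-15a-5p and hsa-miR-15b-5p are identical over their first 11 bases and differ at 4 of 22 positions (A12C, G20A, U21C and G22A). hsa-miR-16-5p differs from hsa-miR-15a-5p at 6 positions and from hsa-miR-15b-5p at 8, all after base 9. None of the 4 rows shared its counts with another row of the table. The sources used here do not say how reads too short to show these differences were counted.

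Of the 2370 mature human microRNAs listed by RefSeq, 7 carry this seed, and 6 of them have a row in the count table. The other guides with a row are shown because they could act on the same targets.
hsa-miR-424-5p: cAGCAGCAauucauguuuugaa
hsa-miR-195-5p: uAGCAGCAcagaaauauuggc
hsa-miR-497-5p: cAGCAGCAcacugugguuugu
hsa-miR-503-5p: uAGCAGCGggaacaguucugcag
The last of these, hsa-miR-503-5p, is a relative whose seed ends in another base (A8G against hsa-miR-16-5p). Over its 21 bases hsa-miR-195-5p differs from hsa-miR-16-5p at 2 positions (G10A and U11G), the closest pair of guides compared.

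hsa-miR-16-5p is made from 2 hairpins that give the same guide but different passengers, shown with both arms in capitals.
MIR16-2: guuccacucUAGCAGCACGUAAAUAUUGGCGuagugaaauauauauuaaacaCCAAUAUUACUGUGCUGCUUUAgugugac
MIR16-1: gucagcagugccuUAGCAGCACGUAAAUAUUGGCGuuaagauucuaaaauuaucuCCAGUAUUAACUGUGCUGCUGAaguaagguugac
MIR16-2 lies on the plus strand of chromosome 3 at 160404745 to 160404825, 59 bases after MIR15B (160404588 to 160404685), and both are in an intron of SMC4, which encodes a condensin subunit (GRCh38, GENCODE release 29). MIR16-1 lies on the minus strand of chromosome 13 at 50048973 to 50049061, in an intron of the noncoding gene DLEU2. MIR15A, at 50049119 to 50049201 and 57 bases away, overlaps an exon of an annotated DLEU2 transcript. Reads of hsa-miR-16-5p therefore cannot be assigned to either hairpin, whereas hsa-miR-16-2-3p and hsa-miR-16-1-3p can.

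The libraries held between 4016295 and 10246336 counts, of which 28455 to 97173 were microRNA counts. These totals are sums over rows, among them rRNA gene copies with equal counts, so a share of counts need not be a share of reads. MicroRNAs took 0.476 to 0.948% of the counts in the scramble libraries and 0.355 to 0.682% in the tDR libraries, ranges that overlap. The row scr2, unexplained by the labels, had 22444 to 58186 counts in the scramble libraries and 59 to 240 in the tDR libraries. The 6 microRNAs taken as HEK293 markers were all counted and summed to 1001 to 1504 CPM in the scramble libraries and 577 to 1038 CPM in the tDR libraries. The largest part was hsa-miR-92a-3p, at 310 to 961 CPM over the 8 libraries. hsa-miR-10b-5p and hsa-miR-196a-5p were the lowest, at 8.90 to 21.0 and 11.3 to 23.3 CPM. CPM are counts relative to library size, with TMM factors between libraries. Of 8 red cell and blood microRNAs 2 had a row, and they summed to 0 to 1.52 CPM in the scramble libraries and 1.09 to 1.25 CPM in the tDR libraries; a count of 0 leaves room for 3 counts. The other marker lists summed, in scramble and tDR libraries, to 4.32 to 6.51 and 5.28 to 9.94 CPM (endothelial), 34.0 to 57.2 and 31.8 to 57.2 CPM (neural, nearly all of it hsa-miR-9-5p) and 0.254 to 2.09 and 1.54 to 3.81 CPM (muscle). The liver marker had no row and so was not analysed here, and the part of these lists in the results was not tested.

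In level, hsa-miR-15b-5p led the family and stood 4th of 342 microRNA rows in either group, and 4th of 310 per nucleotide, behind the leader hsa-miR-19b-3p at 1623 ± 525 CPM in the scramble libraries (SD, n = 4). Per nucleotide of mature RNA, the scramble means were 10.6 CPM for hsa-miR-15b-5p, 2.68 for hsa-miR-16-5p, 2.28 for hsa-miR-424-5p and 0.779 for hsa-miR-15a-5p. The next were 0.291 for hsa-miR-15b-3p, 0.144 for hsa-miR-195-5p and 0.139 for hsa-miR-16-2-3p. Within libraries, hsa-miR-15b-5p was above hsa-miR-16-5p in 8 of 8, and hsa-miR-16-5p above hsa-miR-424-5p in 8 of 8. The latter step was small in scramble library 1 (305 against 299 counts). Across libraries the ranges of hsa-miR-16-5p and hsa-miR-424-5p overlapped, at 38.7 to 73.4 and 38.0 to 60.5 CPM in the scramble libraries. The ranges of hsa-miR-195-5p and hsa-miR-16-2-3p overlapped too. The nearest microRNAs to hsa-miR-16-5p in mean level per nucleotide over all 8 libraries were hsa-miR-148a-3p above it (3.19 CPM in scramble and 2.49 in tDR libraries) and hsa-miR-221-3p below it (3.17 and 2.08).

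The 6 guides with the shared seed together took 5.45 ± 0.368% of the microRNA counts in the scramble libraries and 5.80 ± 0.834% in the tDR libraries (SD, n = 4 each). Within that sum hsa-miR-15b-5p made up 63.1 to 66.9% in the scramble libraries and 53.3 to 67.2% in the tDR libraries. hsa-miR-16-5p made up 13.9 to 17.6% and 15.2 to 24.0%, and hsa-miR-424-5p, from a hairpin on chromosome X, 12.9 to 14.5% and 11.4 to 16.7%. hsa-miR-15a-5p supplied 4.31 to 5.44% and 2.60 to 5.02%. The rest, hsa-miR-195-5p and hsa-miR-497-5p from a cluster on chromosome 17, stayed at or below 1.35% each. The order of the 4 most abundant guides was thus the same in the means of both groups, and all 4 ranges overlapped between the groups.

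**Figure D1:**
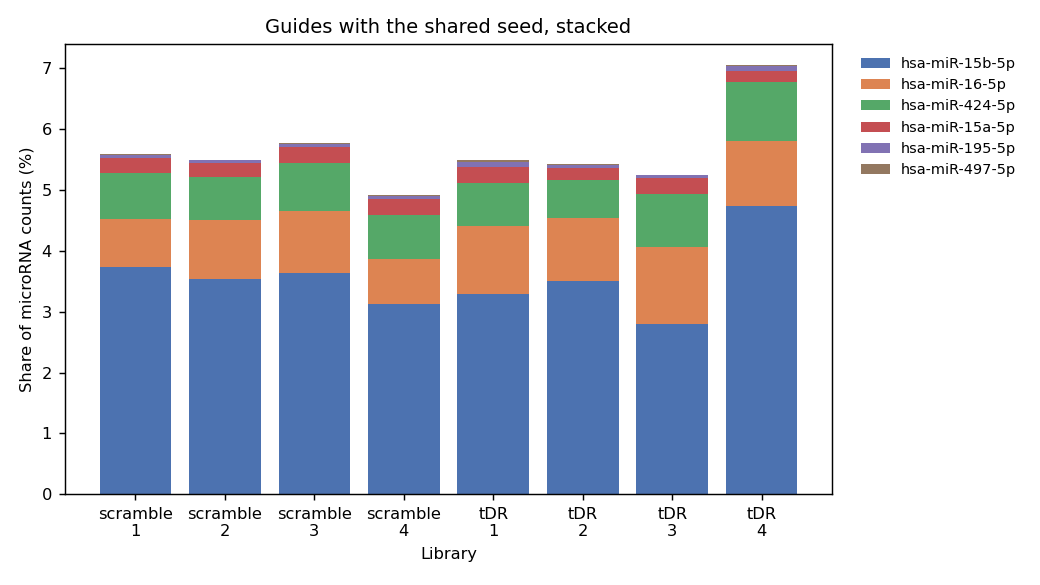
Share of all microRNA counts (vertical axis, %) taken by the 6 guides with the shared seed, stacked, in each of 8 libraries (horizontal axis). hsa-miR-15b-5p is the largest block in every library, and tDR library 4 has the tallest bar, 7.05%.

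tDR libraries were compared with scramble libraries to ask how small RNAs respond to the added fragment. None of the 4 members passed edgeR's quasi-likelihood test at a Benjamini-Hochberg adjusted p below 0.05 (0 of 4). The adjusted result was also 0 of 4 with DESeq2 and with limma-voom. At an unadjusted p below 0.05 this edgeR fit again gave 0 of 4. Before adjustment, hsa-miR-15a-5p was below 0.05 with DESeq2 and with limma-voom, and the other members were not. The unadjusted count therefore depended on the method. Over all 1761 features tested, edgeR called 118 or 6.7%, of which 94 (5.34%) were higher and 24 (1.36%) lower in the tDR libraries. That split was 54 and 39 under total-count scaling, and 157 and 1 under TMM factors from microRNAs alone. Among the 196 tested microRNAs, 9 or 4.59% were called, all lower with these TMM factors. That count turned to 1 lower and 5 higher with TMM factors from microRNAs alone. It was 21 lower and 2 higher with the DESeq2 Wald test, 1 lower with the replicate block, and between 3 lower (without tDR library 4, with 2 higher) and 22 lower (without tDR library 1) with 1 library left out. An unadjusted p below 0.05 was found for 21.5% of all features and 30.1% of microRNAs. The shares over all features count rows, and some gene copies have rows with equal values, such as RNA5S1 and RNA5S2 (mean count 64797 each). They are therefore not shares of independent RNAs. All 4 members had log2 fold changes below 0, with a median of -0.29, beside -0.33 over the tested microRNAs and 0.02 over all features; under TMM factors from microRNAs alone hsa-miR-16-5p and hsa-miR-16-2-3p turned to 0.32 and 0.12. As 159 of the 196 tested microRNAs were below 0, the sign of the members is that of most microRNAs. RNA came from whole cultures, so fewer cells that hold an RNA and less of it per cell cannot be told apart. In CPM the groups overlapped for all 4 members, as they did for most features. They did not overlap for 13.3% of all features and 11.2% of microRNAs.

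**Figure D2:**
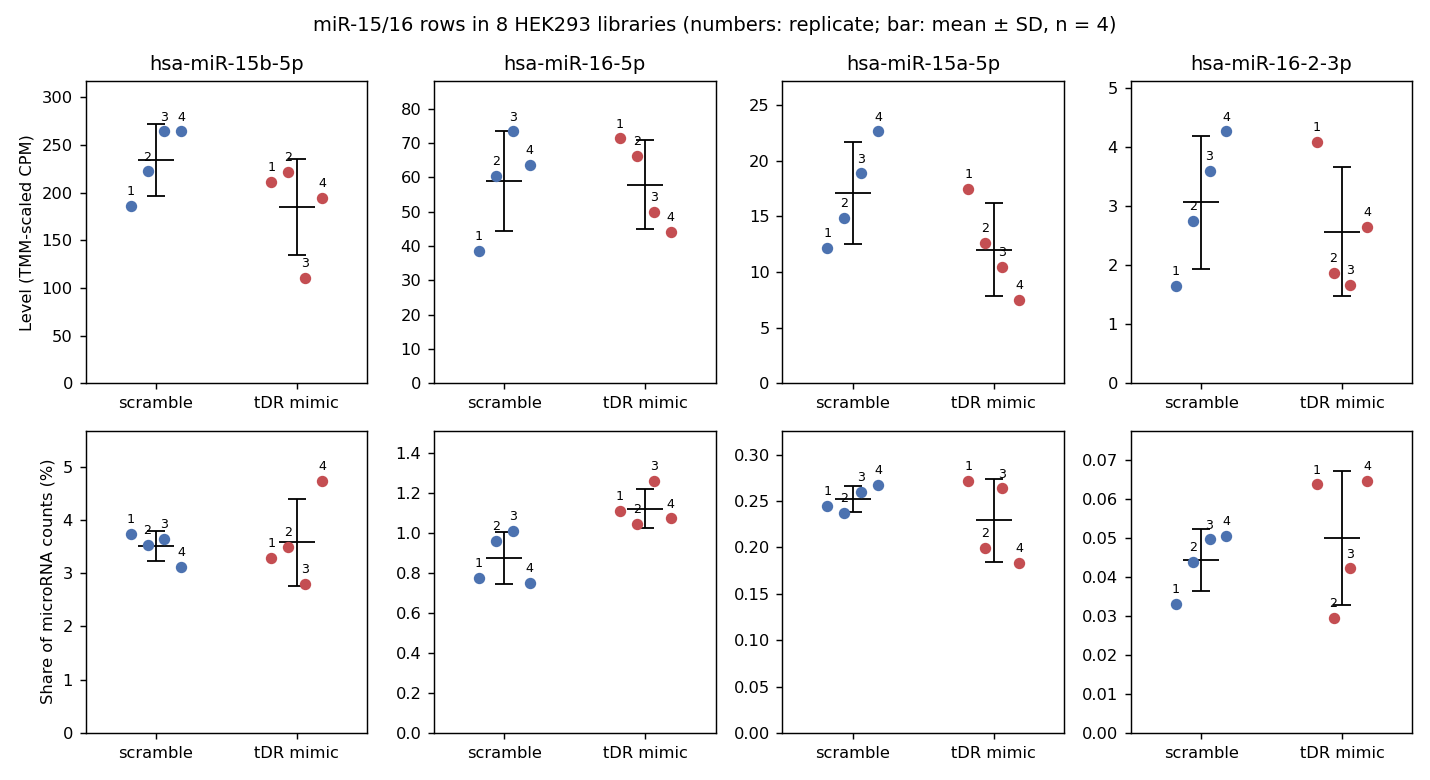
The 4 members in each library, as TMM-scaled CPM (top row) and as % of microRNA counts (bottom row); points are libraries numbered by replicate, bars are mean ± SD (n = 4). The CPM overlap between the groups for every member, and the share of hsa-miR-16-5p does not overlap.

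hsa-miR-15b-5p, the guide of the chromosome 3 cluster, measured 186, 222, 264 and 264 CPM across scramble libraries 1 to 4, against 211, 222, 111 and 194 CPM across tDR libraries 1 to 4. tDR library 3 was low, and the other tDR libraries lay inside the scramble range. The means were 234 ± 37.5 and 185 ± 50.4 CPM (SD, n = 4 each), with a log2 difference of -0.34 (SE 0.19, 95% interval -0.75 to 0.06, edgeR adjusted p = 0.316). Without tDR library 3 it was -0.16 (edgeR adjusted p = 0.702). As a share of microRNA counts the same guide stood at 3.74, 3.54, 3.64 and 3.12% across scramble libraries 1 to 4, and at 3.29, 3.50, 2.80 and 4.73% across tDR libraries 1 to 4. On that scale tDR library 3 was the lowest and tDR library 4 the highest of the 8.

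hsa-miR-16-5p, the guide made by both clusters, measured 38.7, 60.4, 73.4 and 63.5 CPM across scramble libraries 1 to 4, against 71.4, 66.2, 49.9 and 44.1 CPM across tDR libraries 1 to 4. All 4 tDR values lay within the scramble range. Means of 59.0 ± 14.6 and 57.9 ± 13.0 CPM (SD, n = 4 each) gave a log2 difference of -0.02 (SE 0.19, 95% interval -0.42 to 0.38, edgeR adjusted p = 0.957). Of the 196 tested microRNAs, 156 had a lower log2 fold change. Its share of microRNA counts was 0.778, 0.962, 1.01 and 0.751% across scramble libraries 1 to 4, against 1.11, 1.04, 1.26 and 1.07% across tDR libraries 1 to 4. Every tDR library was above every scramble library on that scale. This was so for 14 of the 196 tested microRNAs (7.14%), hsa-miR-16-5p included, and the measure was looked at after the values were seen. Counting either direction, the groups did not overlap for 28 of the 196 (14.3%). With TMM factors estimated on microRNAs alone its log2 fold change was 0.32 (SE 0.19), which did not pass edgeR (adjusted p = 0.304), so its direction depended on the scaling.

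hsa-miR-15a-5p, the guide that comes only from chromosome 13, measured 12.2, 14.9, 18.9 and 22.6 CPM across scramble libraries 1 to 4, against 17.4, 12.6, 10.4 and 7.54 CPM across tDR libraries 1 to 4. The lowest 2 of the 8 values were tDR libraries 4 and 3, and the groups overlapped between 12.2 and 17.4 CPM. At 17.1 ± 4.57 and 12.0 ± 4.18 CPM (SD, n = 4 each) the log2 fold change was -0.51 (SE 0.25, 95% interval -1.03 to 0.01, edgeR adjusted p = 0.238). It had the most negative estimate of the 4 members. Relative to the microRNA median it stood 0.18 lower on the log2 scale, hsa-miR-15b-5p 0.01 lower and hsa-miR-16-5p 0.31 higher. Under microRNA scaling hsa-miR-15a-5p had a log2 fold change of -0.18 and hsa-miR-15b-5p one of -0.01 (edgeR adjusted p = 0.596 and 0.976).

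hsa-miR-16-2-3p, the passenger arm, was counted 13, 29, 16 and 49 times across scramble libraries 1 to 4, against 30, 12, 12 and 19 times across tDR libraries 1 to 4. In CPM these are 1.65, 2.75, 3.59 and 4.26 in the scramble libraries and 4.09, 1.87, 1.67 and 2.65 in the tDR libraries. The tDR values lay within the scramble range. The log2 fold change was -0.25 (SE 0.37, 95% interval -1.02 to 0.53, edgeR adjusted p = 0.806). Its 12 to 49 counts a library left the widest interval of the 4 members.

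**Figure D3:**
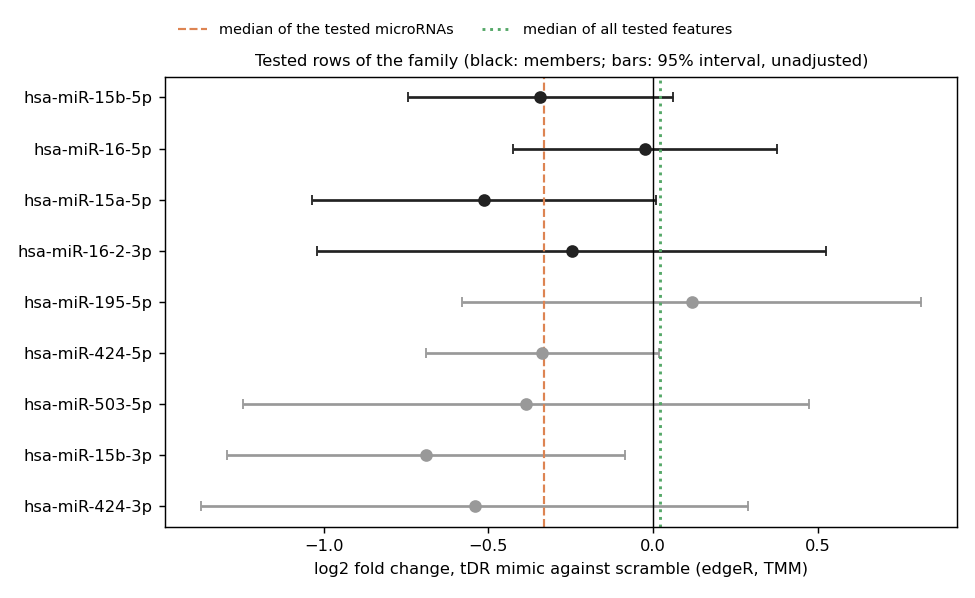
Log2 fold change of tDR against scramble libraries (horizontal axis; edgeR, TMM scaling) for the 9 tested rows of the family, with unadjusted 95% intervals. Members are black, other rows grey; the dashed line at -0.33 is the microRNA median and the dotted line at 0.02 the median of all features.

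The list of other family rows held 6 guides and 7 opposite arms, of which 9 had a row and 5 were tested. None of these 5 passed edgeR (0 of 5, 1 at an unadjusted p below 0.05), against the 6.7% called over all features. hsa-miR-424-5p measured 38.0, 44.6, 57.5 and 60.5 CPM across scramble libraries 1 to 4, against 45.5, 39.1, 34.6 and 39.4 CPM across tDR libraries 1 to 4; its log2 fold change was -0.34 (SE 0.17, edgeR adjusted p = 0.256). The row with that p and the most negative estimate was hsa-miR-15b-3p, the passenger of miR-15b, at 4.70, 6.06, 8.08 and 6.79 CPM in scramble libraries and 5.31, 4.99, 2.36 and 3.07 CPM in tDR libraries; its log2 fold change was -0.69 (SE 0.29, edgeR adjusted p = 0.171). hsa-miR-195-5p had the only estimate above 0, 0.12 (SE 0.33), and hsa-miR-503-5p and hsa-miR-424-3p had -0.39 (SE 0.41) and -0.54 (SE 0.40). The 4 rows too low to test, hsa-miR-497-5p, hsa-miR-15a-3p, hsa-miR-16-1-3p and hsa-miR-503-3p, summed to 63, 38, 38 and 35 counts over the 8 libraries. hsa-miR-646, hsa-miR-6838-5p, hsa-miR-195-3p and hsa-miR-497-3p had no row and so were not analysed here.

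The ratio of guide to passenger within a library does not depend on library scaling. The count of hsa-miR-16-5p was 23.5, 22.0, 20.4 and 14.9 times that of hsa-miR-16-2-3p across scramble libraries 1 to 4, and 17.5, 35.4, 29.9 and 16.6 times across tDR libraries 1 to 4. tDR libraries 2 and 3 were the highest of the 8, and the groups overlapped. The mean log2 ratios, with 0.5 added to both counts, were 4.28 ± 0.28 and 4.51 ± 0.53 (SD, n = 4 each), a difference of 0.23 (two-sided exact permutation p = 0.457, adjusted over 3 ratios 0.657, where 0.0286 is the smallest p that 4 against 4 libraries can give). A ratio that alone reached that p would stand at 0.0857 after adjustment, above 0.05, so a difference in 1 ratio only could not have passed. In percent of both arms, the passenger ranged from 2.75% (95% exact binomial interval 1.43 to 4.75%) in tDR library 2 to 6.29% (4.69 to 8.23%) in scramble library 4. The intervals cover counting error only. hsa-miR-16-5p can also come from MIR16-1, so the ratio is not that of the MIR16-2 duplex alone.

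**Figure D4:**
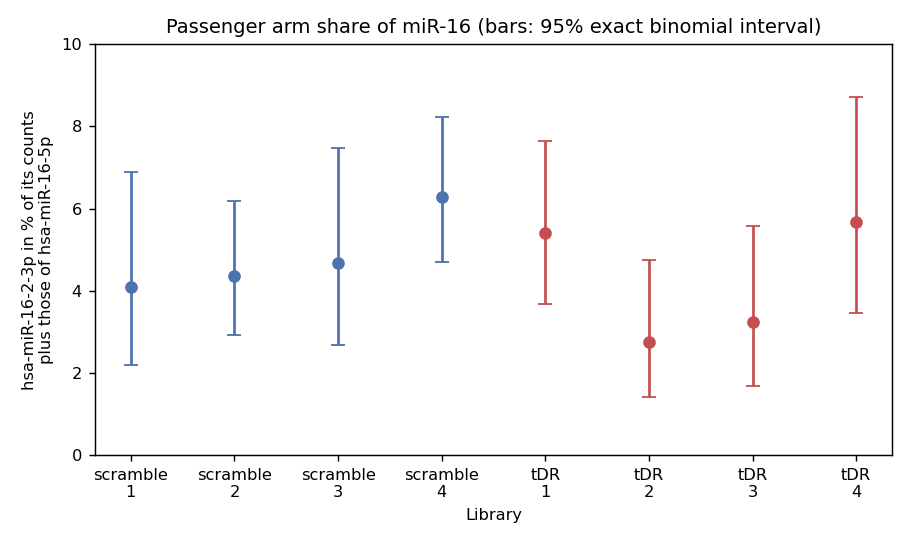
hsa-miR-16-2-3p in % of its own counts plus those of hsa-miR-16-5p (vertical axis) in each library (horizontal axis), with 95% exact binomial intervals. The values run from 2.75% in tDR library 2 to 6.29% in scramble library 4.

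Across 34 microRNA arm pairs with both arms tested, the miR-16 pair ranked 7th in the size of its arm ratio. Pairs whose rarer arm was too low to test, such as that of miR-15a, are not among them. Its mean log2 ratio of 4.40 over the 8 libraries, or 21.1-fold, compares with a median of 1.74, or 3.33-fold, over the pairs. hsa-miR-15b ranked 2nd, at 5.37, and hsa-miR-424 ranked 4th, at 4.66. The neighbours of the miR-16 pair were hsa-miR-196b above it (4.63) and hsa-miR-221 below it (4.35), the latter with the 3p arm higher. In 20 of the 34 pairs the 5p arm was the higher, as in the family pairs.

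**Figure D5:**
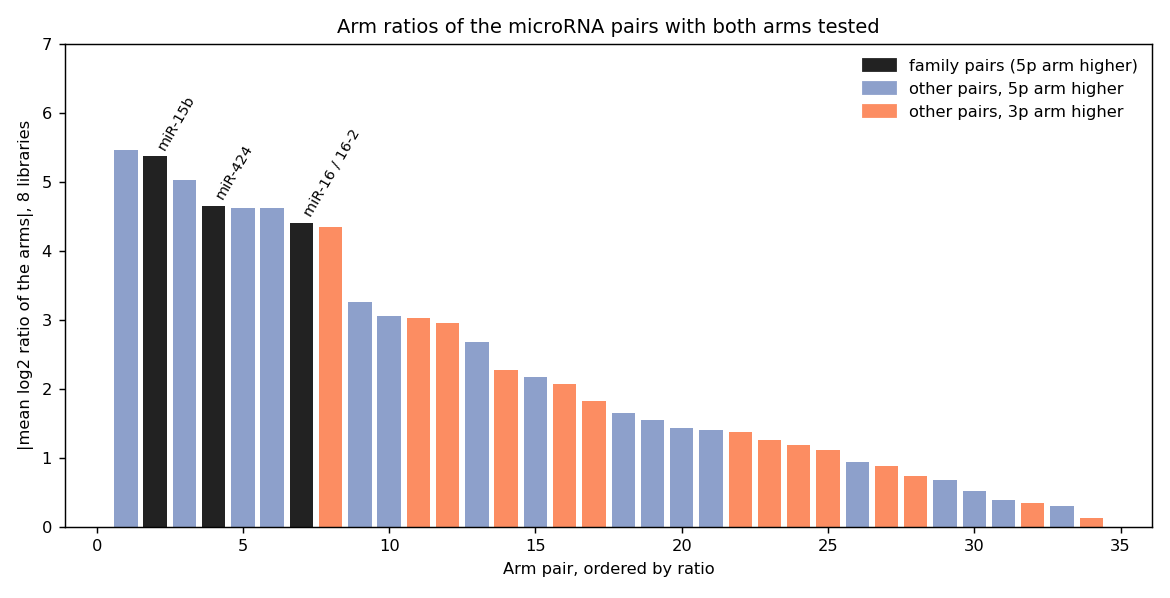
Absolute mean log2 ratio of the 2 arms (vertical axis) for 34 microRNA pairs ordered by size (horizontal axis), over 8 libraries. The family pairs, in black, stand 2nd, 4th and 7th.

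The arm ratio of miR-15b was looked at after its values were seen. The count of hsa-miR-15b-5p was 39.6, 36.6, 32.7 and 38.9 times that of hsa-miR-15b-3p across scramble libraries 1 to 4, and 39.7, 44.5, 46.9 and 63.3 times across tDR libraries 1 to 4. The highest scramble and the lowest tDR library were nearly equal, yet the groups did not overlap, which among 34 arm pairs was so for 1 (2.94%), this pair. The passenger counts behind these ratios were 36 to 78 in the scramble and 17 to 39 in the tDR libraries. The difference was not tested, and the miR-16 and miR-424 pairs overlapped between the groups.

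The balance between the guides was compared in the same way, with the same smallest p. hsa-miR-16-5p reached 0.208, 0.272, 0.278 and 0.241 of the count of hsa-miR-15b-5p across scramble libraries 1 to 4, against 0.338, 0.298, 0.450 and 0.227 across tDR libraries 1 to 4. The values of tDR libraries 1, 2 and 3 were above the scramble range, and that of tDR library 4 was within it. The difference of the mean log2 ratios was 0.36 (exact permutation p = 0.143, adjusted over 3 ratios 0.429). Without tDR library 3 it was 0.20 and without tDR library 4 it was 0.52 (exact permutation p = 0.0286, adjusted 0.0857). The count of hsa-miR-15b-5p was 15.3, 14.9, 14.0 and 11.7 times that of hsa-miR-15a-5p across scramble libraries 1 to 4, and 12.1, 17.6, 10.6 and 25.8 times across tDR libraries 1 to 4. The tDR libraries spread to either side of the scramble range, with a log2 difference of 0.16 (exact permutation p = 0.657, adjusted 0.657) that turned to -0.08 without tDR library 4.

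Each of the 2 clusters has arms that occur only in it, and the counts of these arms are compared here. The arms differ in sequence, and whether equal amounts of them give equal counts was not tested. A share of counts is therefore not a share of cluster output. The group shares below are of counts summed over the libraries of a group. Their intervals cover counting error only, not the spread among libraries. hsa-miR-15b-5p made up 93.1% of the summed counts of hsa-miR-15b-5p and hsa-miR-15a-5p in the scramble libraries (95% exact binomial interval 92.5 to 93.6%) and 93.9% in the tDR libraries (93.2 to 94.5%), with libraries from 92.1 to 93.9% and from 91.4 to 96.3%. hsa-miR-16-2-3p made up 83.6% of both miR-16 passengers in the scramble libraries (76.0 to 89.5%, 107 against 21 counts) and 81.1% in the tDR libraries (71.5 to 88.6%, 73 against 17 counts). By library it ran from 70.7 to 96.1% and from 75.0 to 86.4%. hsa-miR-15b-3p made up 93.1% of both miR-15 passengers in the scramble libraries (89.0 to 96.0%, 215 against 16 counts) and 83.3% in the tDR libraries (75.9 to 89.3%, 110 against 22 counts). By library it ran from 88.6 to 97.3% and from 78.6 to 91.4%, ranges that overlap, and the difference was not tested. The arm from chromosome 3 was the more counted in each of these 3 pairs, in every library.

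Over the 8 libraries, the microRNAs whose log2 CPM followed hsa-miR-16-5p most closely, among 52 with a mean count of at least 100, were hsa-miR-374a-5p (Pearson r = 0.90), hsa-miR-9-5p (0.89) and hsa-miR-374b-5p (0.89). The r with the other members was lower, at 0.55 for hsa-miR-15b-5p, 0.72 for hsa-miR-15a-5p and 0.66 for hsa-miR-16-2-3p. As the microRNAs named above were picked for the highest r, a lower r of members named beforehand carries little information. hsa-miR-16-2-3p, with a mean count of 22.5, was also below the count floor of those candidates. These r describe 8 libraries that share their scaling factors and their differing microRNA content. For hsa-miR-374a-5p, hsa-miR-9-5p and hsa-miR-374b-5p the log2 fold changes were -0.22, -0.10 and -0.19 (edgeR adjusted p = 0.687, 0.856 and 0.773).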

How the data were processed

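Small RNA was measured in 8 HEK293 libraries, 4 per group, grouped by their labels. Whole-number counts per feature were deposited by the authors, on genome build hg38 (per the submitters' processing notes). No aligner, counter or annotation is named in the sources used here. A second deposited file holds a normalized signal, in which each library's counts are divided by 1 factor for tRNA features and another for the rest. The rows scr and scr2 stayed out of library sizes and tests.

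Of 2962 features 1761 passed filterByExpr and were tested with edgeR 4.0.16 (R 4.3.3; TMM, robust quasi-likelihood F test, no covariates, Benjamini-Hochberg adjustment over all). SE was taken as the log2 fold change over the root of F. The biological coefficient of variation was 19.0%. On simulated data the fit found 78 of 97 features with a log2 change of 1 and 95 of 95 with 2, and made 4 false calls among 1497. Smaller changes were not simulated, so these rates do not cover the members, whose estimates ran from -0.51 to -0.02. Ratios between members were compared by exact permutation over 70 arrangements. Chi-square per degree of freedom between replicates was at least 15.6, so no library was a copy. Sequences are from RefSeq (GRCh38.p14), where 13 of 13 family rows and 310 of 342 microRNA rows matched; host genes are from GENCODE release 29. Named features were the members, the seed family and its opposite arms, the 3 microRNAs most correlated with hsa-miR-16-5p, its neighbours in level, the most abundant microRNA and the neighbouring arm pairs. Members, lists and tests were chosen with earlier results of these data known. Alternatives were DESeq2 1.42.0, limma-voom (limma 3.58.1), limma on the deposited signal plus 1, other scalings and filters, a replicate block and leaving out each library.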

Additional observations from a re-analysis of the deposited data

Results flagged for a closer look

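A library stood apart from the other 3 of its group (Dixon's test) in 3 of 44 groups of 4 tested; chance alone flags about 1 group in 20. hsa-miR-503-5p was at 1.14 CPM in scramble library 2, from 12 counts, and at 3.13 to 3.43 CPM in the other scramble libraries. hsa-miR-15a-3p was at 0.870 CPM in scramble library 4, from 10 counts, and at 0.224 to 0.284 CPM in the others, from 1 to 3 counts. The 6 guides with the shared seed took 7.05% of the microRNA counts in tDR library 4 and 5.25 to 5.49% in the other tDR libraries; hsa-miR-15b-5p, at 4.73%, accounted for most of that sum.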

How the results depend on the processing

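No alternative called any of the 4 members at an adjusted p below 0.05. The lowest unadjusted edgeR p was 0.0057 for hsa-miR-15a-5p (without tDR library 1) and 0.032 for hsa-miR-15b-5p (total counts). Over 17 alternatives the log2 fold change of hsa-miR-15b-5p ran from -0.49 to -0.01 (adjusted p from 0.157 to 0.976) and that of hsa-miR-15a-5p from -0.77 to -0.18 (adjusted p from 0.057 to 0.596), both always below 0. That of hsa-miR-16-5p ran from -0.18 to 0.32. It was above 0 under TMM on microRNAs alone (0.32), on the deposited normalized signal (0.031), and with scramble library 3 (0.055), tDR library 3 (0.043) or tDR library 4 (0.089) left out. hsa-miR-16-2-3p ran from -0.56 to 0.12, above 0 under TMM on microRNAs alone (0.12); a mean count of at least 50 left it out of the test. TMM on microRNAs alone moved the median of all features from 0.02 to 0.36. The log2 guide to passenger ratio differed by 0.04 to 0.40 with 1 library left out, that of hsa-miR-16-5p to hsa-miR-15b-5p by 0.20 to 0.52 and that of hsa-miR-15b-5p to hsa-miR-15a-5p by -0.084 (without tDR library 4) to 0.34. Over all features the 118 calls became 191 with the DESeq2 Wald test, 185 with limma on the deposited signal, 39 with the replicate block (1 lower) and 65 to 164 with 1 library left out, lowest without scramble library 2 (65) and scramble library 3 (70). The values gave no sign that replicate numbers pair the libraries. Same-numbered deviations correlated at -0.34, -0.18, -0.26 and -0.12, and differently numbered ones at -0.18 to 0.29. Whether libraries were paired is not stated in the labels, and these correlations cannot settle it. With the replicate block hsa-miR-15b-5p had a log2 fold change of -0.37 and hsa-miR-16-5p one of -0.02, while sign flips of same-numbered ratios cannot go below p = 0.125 with 4 pairs (exact test) and so say nothing about the 3 ratios. hsa-miR-16-2-3p rested on 12 to 49 counts a library, which limits its precision.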
